A study of Mus musculus with 6 samples.

Results

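Monoamine genes make, store, take back and break down dopamine, noradrenaline and serotonin. Those described here were Th, Ddc, Dbh, Slc18a2, Slc6a2, Maoa, Maob, Qdpr and Ppp1r1b, taken by gene symbol from the deposited table, 9 genes of 55098 listed. Their RNA was measured by RNA-seq in the whole cerebellum, from male mice aged 60 postnatal days. The groups were Slc39a14 knock-out (KO) mice, animals 2, 4 and 6, and Slc39a14 wildtype (WT) mice, animals 1, 3 and 5, with 1 library per animal. Slc39a14 encodes ZIP14, a metal transporter that carries manganese, and the series title presents the mice as a model of a childhood dystonia with parkinsonism caused by manganese. The sources used here give neither the strain nor the part of the gene that the allele lacks. The knock-out is labelled without a tissue restriction, and the tissue was whole cerebellum, so that a lower share of a cell type and less RNA per cell cannot be told apart.

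Catecholamine synthesis starts with tyrosine hydroxylase (Th), which turns tyrosine into L-DOPA with the cofactor tetrahydrobiopterin. DOPA decarboxylase (Ddc) makes dopamine, the vesicular transporter VMAT2 (Slc18a2) loads it into vesicles, and dopamine beta-hydroxylase (Dbh) turns it into noradrenaline there. The cerebellum receives noradrenaline through fibres of the locus coeruleus, a nucleus of the neighbouring pons in which the cell bodies lie. In mice some Purkinje cells, the output neurons of the cerebellar cortex, also transcribe Th, and several mouse mutants with ataxia or dystonia show more Purkinje cells with Th.

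The RefSeq promoters of Th and Slc18a2 are shown because both hold the cAMP response element TGACGTCA, the binding motif of CREB proteins, and that of Dbh because Dbh set the groups apart in these data. Each runs 5′ to 3′ from 250 bases before the start to 50 after it in GRCm38.p6, at chr7:142899946-142900245 (minus strand) for Th, chr19:59260628-59260927 (plus strand) for Slc18a2 and chr2:27165257-27165556 (plus strand) for Dbh. Capitals mark the response element and the GC box GGGCGG, on either strand.
Th: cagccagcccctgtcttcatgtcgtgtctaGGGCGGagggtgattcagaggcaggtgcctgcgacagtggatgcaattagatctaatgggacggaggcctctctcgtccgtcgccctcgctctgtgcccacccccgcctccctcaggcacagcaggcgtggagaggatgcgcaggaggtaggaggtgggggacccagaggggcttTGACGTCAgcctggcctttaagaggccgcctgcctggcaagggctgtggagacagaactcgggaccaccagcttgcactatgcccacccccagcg
Slc18a2: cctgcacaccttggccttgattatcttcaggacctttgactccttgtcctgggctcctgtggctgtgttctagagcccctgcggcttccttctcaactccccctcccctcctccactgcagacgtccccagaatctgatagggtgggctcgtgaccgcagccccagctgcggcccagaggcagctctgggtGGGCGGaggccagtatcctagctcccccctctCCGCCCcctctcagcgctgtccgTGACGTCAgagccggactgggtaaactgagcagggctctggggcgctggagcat
Dbh: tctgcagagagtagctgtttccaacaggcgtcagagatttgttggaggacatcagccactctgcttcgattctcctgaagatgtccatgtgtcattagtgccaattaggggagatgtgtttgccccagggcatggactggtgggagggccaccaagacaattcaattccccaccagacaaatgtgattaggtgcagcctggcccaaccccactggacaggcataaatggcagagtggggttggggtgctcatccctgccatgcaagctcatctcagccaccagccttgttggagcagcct
The response element began 45 bases before the start of Th and 4 bases before that of Slc18a2. The RefSeq start of Th lies inside the annotated span of the gene, which begins farther upstream. Of 32851 RefSeq promoters of 300 bases, 1.79% held TGACGTCA, which reads alike on both strands, and 35.7% held GGGCGG or its complement CCGCCC. Also searched on both strands were TATAAA, in 13.6% of promoters, and AAAGGTCA, the motif of NR4A receptors, in 1.51%. The Dbh window held none of these 4 motifs. In Ddc, which has 2 starts listed, the window of the start at the 5′ end of the gene held TATAAA and AAAGGTCA, whose positions overlap by 3 bases. The windows of Maoa and Qdpr held only the GC box. A match describes the letters and does not show binding.

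Total gene counts were 13805997 to 15788135 per library, so that 1 count was worth 0.0633 to 0.0724 CPM (counts scaled to library depth). Slc39a14 itself had 654, 572 and 640 counts in KO 2, 4 and 6 and 582, 646 and 598 counts in WT 1, 3 and 5, a log2 fold change of 0.00 (SE 0.11), so its counts left the genotype labels unchecked, and KO and WT are used for the libraries by their labels. Defining cerebellar markers were abundant, with a mean of 359 FPKM (counts scaled to gene length and depth) for Gabra6 of granule cells and 307 FPKM for Car8 of Purkinje cells. The 11 Hox genes of the caudal brainstem summed to 3, 8 and 6 counts in KO 2, 4 and 6, against 1, 2 and 0 counts in WT 1, 3 and 5, at most 0.557 CPM in any library (exact permutation p = 0.1, the smallest possible), and 4 of them were at 0 in all. Libraries stood apart in other tissues. The 16 choroid plexus markers summed to 1443, 1987 and 657 CPM in KO 2, 4 and 6 and to 814, 304 and 175 CPM in WT 1, 3 and 5. The 10 microglia markers summed to 146 to 189 CPM in KO and 116 to 126 CPM in WT, and the 12 granule cell markers to 6884 to 7071 CPM in KO and 7333 to 7704 CPM in WT (exact permutation p = 0.1 for each, the smallest possible). The monoamine genes were also fitted with a term for the choroid plexus score of each library, and with libraries left out. Values of these fits that moved a result stand beside it or in the closing section on processing. The part of the other markers in the results was not tested.

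The monoamine genes differed widely in level. By length-scaled expression averaged over the 6 libraries, Qdpr was first with 52.2 FPKM, followed by Ppp1r1b with 31.9, Maoa with 12.7 and Maob with 7.07 FPKM. The ranges of these 4 genes over the libraries did not overlap with those of their neighbours in this order. Th followed with 2.06 FPKM, Slc18a2 with 1.40 and Ddc with 0.932 FPKM, and the ranges of neighbours among these 3 overlapped, although Slc18a2 was above Ddc within every library. Dbh had 0.292 and Slc6a2 0.117 FPKM, and their ranges overlapped with each other, as did those of Ddc and Dbh. The spread between libraries was widest for Dbh and Slc6a2, the lowest of the genes. The highest library held 18.7 times the FPKM of the lowest for Dbh, 7.95 times for Slc6a2 and 2.72 times for Th, against 1.38 times for Qdpr and Maoa.

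**Figure D1:**
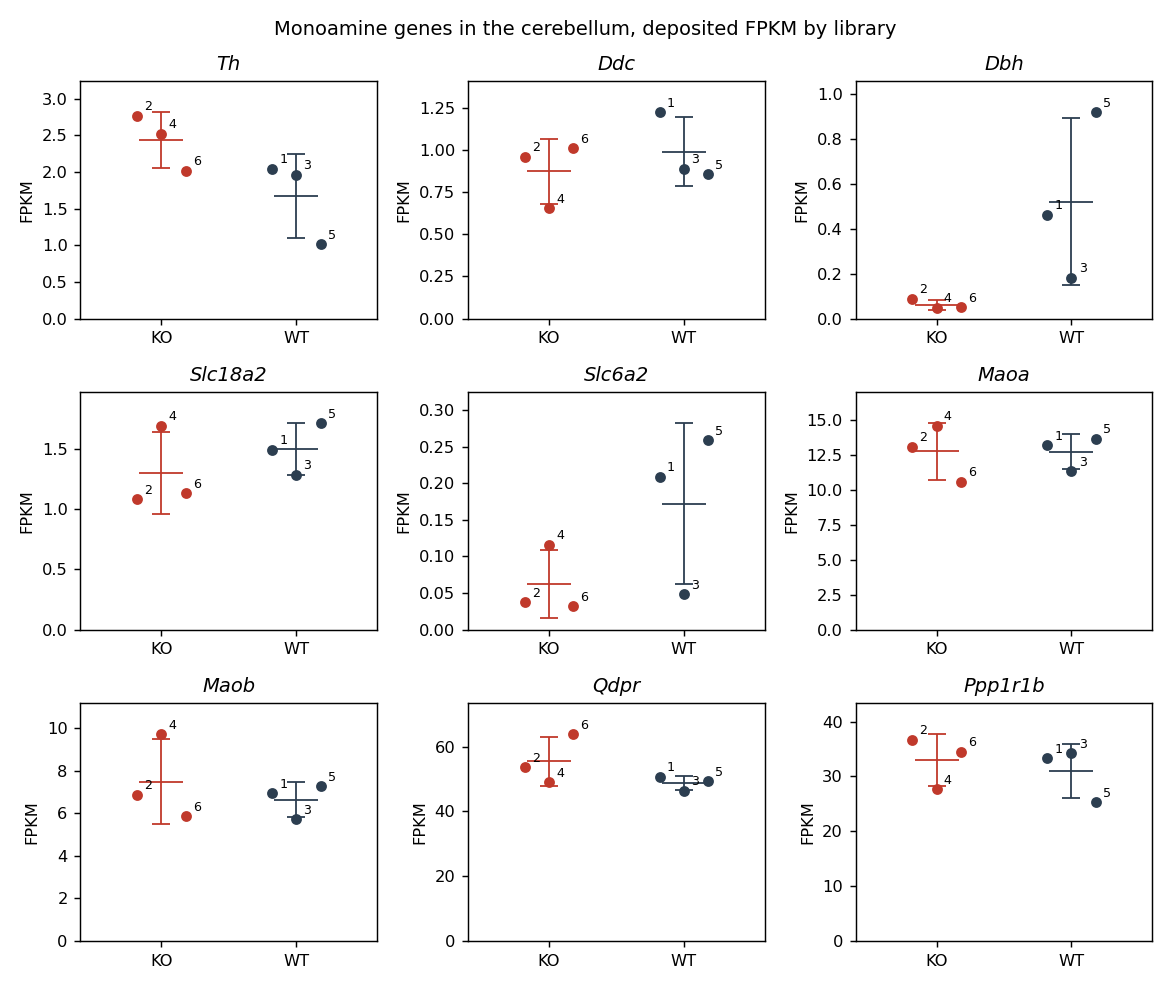
Deposited FPKM (vertical axes, each from 0) of the 9 monoamine genes in the 3 KO (red, left) and 3 WT (dark, right) libraries; points are libraries with the animal number, and lines give the mean and SD. Dbh is below 0.1 FPKM in every KO library and at 0.181 to 0.920 FPKM in WT, while the groups overlap for the other 8 genes.

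In the comparison of KO with WT, none of the monoamine genes that could be tested was called. Of 17142 genes that passed the filter on low counts, 8 were called at an adjusted p under 0.05 (edgeR quasi-likelihood test with Benjamini-Hochberg adjustment), which is 0.0467%. The filter passed 8 of the 9 monoamine genes, all but Dbh, and 0 of these 8 were called, with 0 at an unadjusted p under 0.05. By limma-voom 0 of the 8 were called, and by DESeq2 0 of the 9. Their log2 fold changes had a median of 0.06, with 5 of 8 positive, beside a median of 0.00 and 48.8% positive over all tested genes. In 0 of the 8 did the KO and WT libraries separate without overlap, as they did in 7.26% of all tested genes in either direction. The sources used here do not say whether animals were littermates.

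Th, the rate-limiting enzyme of catecholamine synthesis (ENSMUSG00000000214, chromosome 7, 142892752 to 142931128, minus strand), leaned higher in KO without passing the test. It had 6.90, 6.27 and 5.01 CPM in KO 2, 4 and 6, against 5.07, 4.84 and 2.49 CPM in WT 1, 3 and 5. KO 2 and KO 4 lay above every WT library, KO 6 lay just under WT 1, and WT 5 stood low. The mean was 6.06 ± 0.961 CPM for KO and 4.13 ± 1.43 CPM for WT (± SD over n = 3 libraries each), a log2 fold change of 0.55 (SE 0.28, 95% interval -0.08 to 1.18, edgeR adjusted p = 1.0). Without WT 5 the log2 fold change was 0.30, and with a term for the choroid plexus score of each library it was 0.10. The authors' deposited table gave a log2 fold change of 0.55 for Th with an unadjusted p of 0.0896.

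Because Th is transcribed in some Purkinje cells, it was also set against the summed CPM of 12 Purkinje cell markers. These summed to 9399 to 10388 CPM in KO and 8854 to 9953 CPM in WT, and 10 of the 12 had a positive log2 fold change, between -0.04 and 0.19. The log2 ratio of Th to this sum was -10.7 ± 0.267 for KO and -11.2 ± 0.592 for WT (± SD over n = 3 libraries each). The difference of 0.54 gave p = 0.2 in an exact two-sided permutation test, where 3 against 3 libraries cannot go below 0.1. Without WT 5 the difference was 0.21.

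Dbh, the enzyme that makes noradrenaline (ENSMUSG00000000889, chromosome 2, 27165233 to 27183200, plus strand), was low in every KO library. It had 4, 2 and 2 counts in KO 2, 4 and 6, against 18, 8 and 35 counts in WT 1, 3 and 5. These are 0.178 ± 0.0634 CPM for KO and 1.46 ± 1.03 CPM for WT (± SD over n = 3 libraries each). Every KO library lay below every WT library, an order found in 3.45% of the 32046 genes with at least 1 count, and the exact two-sided permutation test gave its smallest possible p of 0.1. The summed counts, 8 in KO and 61 in WT, gave a ratio of KO to WT per depth of 0.130 (exact 95% interval 0.0536 to 0.272, counting error only). The WT libraries differed among themselves as well, with WT 5 holding more than the other WT libraries together.

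Whether Dbh was called depended on the test and on a single library. Dbh failed the filter on low counts and so had no value in the comparison above. In the edgeR fit of every gene with at least 1 count, looked at for Dbh after its counts were seen, it fell in KO with a log2 fold change of -2.94 (SE 0.65, edgeR adjusted p = 0.00194). The spread in that fit came from the trend over all genes, so this p does not measure how Dbh varied between animals. That fit called 142 of 32046 genes, 0.443%, among them 14 of the 16 choroid plexus markers, whose groups overlap. Of 15 alternatives to that fit 9 kept the call, among them 3 other scalings and the fits without any single library other than WT 5, and 6 ended it. Also among the 9 was edgeR with robust shrinkage, which gave Dbh values identical to that fit and so was no separate check. The call ended without WT 5 (-2.27, edgeR adjusted p = 0.347), with WT 5 and KO 4 left out (-2.12, edgeR adjusted p = 0.559) and with the choroid plexus term (-2.47, edgeR adjusted p = 0.844). It also ended with protein-coding genes only (-2.95, edgeR adjusted p = 0.395), by limma-voom (-2.53, adjusted p = 0.887) and by DESeq2 (-3.01, adjusted p = 0.312). The authors' deposited table gave Dbh a log2 fold change of -3.01 with an adjusted p of 0.289.

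Slc6a2, the transporter that takes noradrenaline back into noradrenergic neurons (ENSMUSG00000055368, chromosome 8, 92960079 to 93001667, plus strand), was high in the same WT libraries as Dbh. It had 4, 11 and 3 counts in KO 2, 4 and 6, against 19, 5 and 23 counts in WT 1, 3 and 5. WT 1 and WT 5 stood high, while WT 3 lay within the KO range. Its level was 0.411 ± 0.308 CPM for KO and 1.13 ± 0.716 CPM for WT (± SD over n = 3 libraries each), a log2 fold change of -1.43 (SE 0.69, 95% interval -2.97 to 0.12, edgeR adjusted p = 1.0). It was -2.21 without KO 4, -1.88 without WT 3, -1.01 without WT 5 and -1.99 with the choroid plexus term, with edgeR adjusted p of 0.989 to 1.0 in these. The ratio of summed counts per depth, KO to WT, was 0.378 (exact 95% interval 0.207 to 0.664), which covers counting error only and not the spread between animals.

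Other genes of noradrenergic and sympathetic neurons were near 0, and some of them were high in WT 1 or WT 5. Phox2a, a transcription factor that defines these neurons, had 0, 0 and 0 counts in KO 2, 4 and 6, against 1, 0 and 7 counts in WT 1, 3 and 5. Gal, the neuropeptide galanin, had 3 counts in each KO library, against 9, 2 and 9 counts in WT. Calcr, the calcitonin receptor, had 1, 7 and 4 counts in KO, against 11, 1 and 6 counts in WT. Hand2, of sympathetic neurons, was at 0 in all. The neuropeptide gene Cartpt had 7, 3 and 5 counts in KO, against 6, 11 and 7 counts in WT, and Pnmt, which makes adrenaline, had 2 counts in KO 4 and 0 elsewhere. All 9 listed noradrenergic and sympathetic genes, Dbh and Slc6a2 among them, summed to 1.26, 2.44 and 1.43 CPM in KO 2, 4 and 6, against 4.71, 1.78 and 6.44 CPM in WT 1, 3 and 5 (exact permutation p = 0.2). WT 1 and WT 5, the libraries with the highest sums, were also highest in Dbh and Slc6a2, both of which are in the sum, and the part of the number of noradrenergic cells in the difference was not tested.

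**Figure D2:**
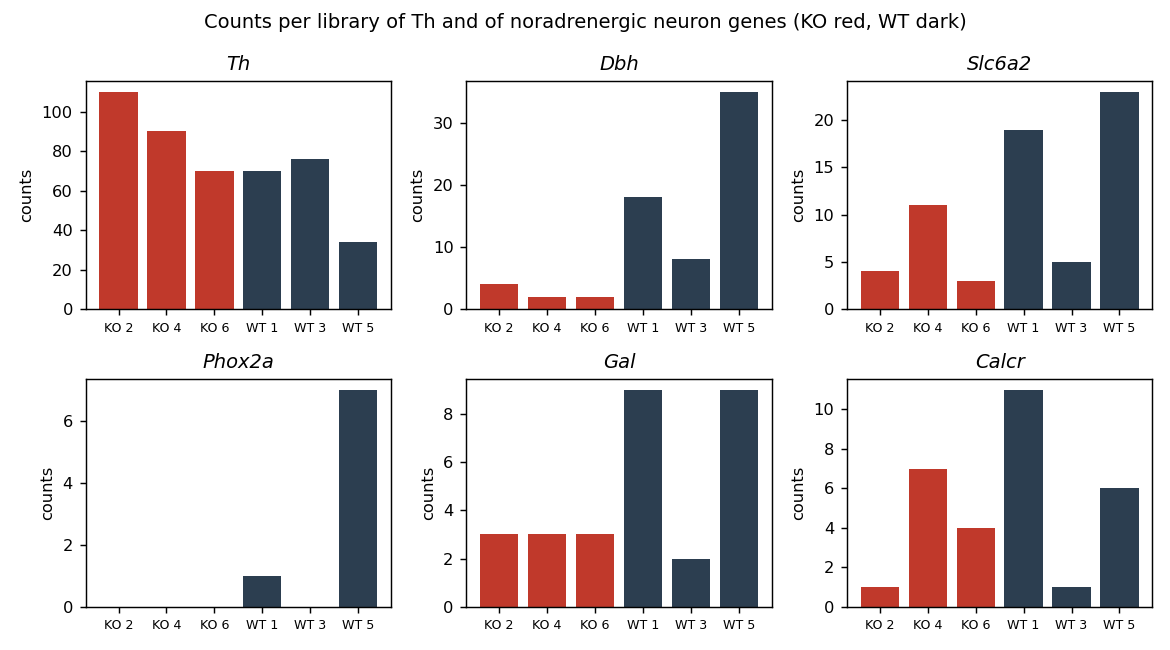
Counts per library (vertical axes, from 0) of Th and of 5 genes of noradrenergic neurons, with the KO libraries in red on the left and the WT libraries dark on the right. Dbh, Slc6a2, Phox2a and Gal are highest in WT 5 or shared by WT 1 and WT 5, whereas Th is lowest in WT 5.

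Th did not follow Dbh across the libraries. WT 5 held the most Dbh and the least Th, and KO 2 the most Th with 4 counts of Dbh. The log2 CPM values of Th and Dbh had a Pearson correlation of -0.80 and those of Dbh and Slc6a2 of 0.79, over 6 libraries that also differ in genotype. These are descriptions of libraries with few counts. Of the 8 listed markers of midbrain dopamine neurons 4 were under 1 CPM on average. The dopamine transporter Slc6a3 had 0 to 2 counts per library, Pitx3 had 0 to 2, and Foxa1 and Foxa2 were at 0 in all. The other markers were detected, with 2964 to 3632 counts per library for Aldh1a1, 252 to 525 for Nr4a2, 42 to 133 for En1 and 9 to 76 for Drd2. The list summed to 255 to 293 CPM in KO and 238 to 280 CPM in WT (exact permutation p = 0.7). Most of this sum was Aldh1a1, with 219 to 253 CPM in KO and 196 to 240 CPM in WT. The sum and its p therefore describe mainly that gene and not the markers near 0.

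Ddc, which makes dopamine and serotonin from their precursors (ENSMUSG00000020182, chromosome 11, 11814101 to 11898144, minus strand), had 4.52, 3.07 and 4.73 CPM in KO 2, 4 and 6, against 5.72, 4.14 and 3.95 CPM in WT 1, 3 and 5. The groups overlapped, with a log2 fold change of -0.16 (SE 0.25, 95% interval -0.73 to 0.41, edgeR adjusted p = 1.0). Slc18a2, the vesicular transporter (ENSMUSG00000025094, chromosome 19, 59260878 to 59296012, plus strand), had 4.33, 6.76 and 4.51 CPM in KO, against 5.94, 5.09 and 6.73 CPM in WT. KO 4 and WT 5 were highest and KO 2 and KO 6 lowest. This was a log2 fold change of -0.19 (SE 0.24, 95% interval -0.71 to 0.34, edgeR adjusted p = 1.0). For Slc18a2 it was -0.42 without KO 4, -0.07 without KO 2 and -0.38 with the choroid plexus term. Unlike Dbh, neither gene varied by more than 1.87 times in FPKM between libraries.

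Maoa and Maob encode the monoamine oxidases of the outer mitochondrial membrane, which break down amines. They lie on the X chromosome with their 3′ ends facing each other, Maoa at 16619698 to 16687818 on the plus strand and Maob at 16709282 to 16817366 on the minus strand, 21463 bases apart. Maoa had 57.4, 63.7 and 46.2 CPM in KO 2, 4 and 6, against 57.4, 49.1 and 58.8 CPM in WT 1, 3 and 5 (a log2 difference of 0.02, SE 0.14, edgeR adjusted p = 1.0). Maob had 20.2, 28.5 and 17.2 CPM in KO, against 20.3, 16.7 and 21.0 CPM in WT (a log2 difference of 0.19, SE 0.19, edgeR adjusted p = 1.0). Both were highest in KO 4, and KO 6 and WT 3 were the lowest libraries for each. Per length, Maoa stood at 1.5 to 1.9 times Maob in KO and 1.87 to 1.97 times in WT, with KO 4 lowest. The 95% intervals of the fold changes, -0.29 to 0.32 for Maoa and -0.24 to 0.61 for Maob, leave out a doubling or a halving.

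Qdpr encodes dihydropteridine reductase, which regenerates tetrahydrobiopterin for Th (ENSMUSG00000015806, chromosome 5, 45434021 to 45450236, minus strand). It had 101, 92.1 and 120 CPM in KO 2, 4 and 6, against 94.9, 86.5 and 91.1 CPM in WT 1, 3 and 5. KO 2 and KO 6 lay above every WT library, and KO 4 lay within the WT range. This was a log2 fold change of 0.20 (SE 0.11, 95% interval -0.05 to 0.45, edgeR adjusted p = 1.0). With KO 4 left out it was 0.29, with KO 6 left out 0.09 and with the choroid plexus term 0.32, and none of these passed (edgeR adjusted p of 0.998 to 1.0).

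Ppp1r1b encodes DARPP-32, a phosphoprotein of dopamine-receiving neurons of the striatum that inhibits protein phosphatase 1 (ENSMUSG00000061718, chromosome 11, 98348404 to 98357796, plus strand). It had 113, 85.1 and 106 CPM in KO 2, 4 and 6, against 102, 105 and 76.5 CPM in WT 1, 3 and 5. KO 4 and WT 5 were the lowest, and the other 4 libraries lay within 102 to 113 CPM. This was a log2 fold change of 0.10 (SE 0.15, 95% interval -0.22 to 0.43, edgeR adjusted p = 1.0). The gene overlaps a transcript on the opposite strand, which had 111 counts over all libraries, beside 4508 counts in KO and 4097 in WT for Ppp1r1b. Since the sources used here do not say whether counting used strand, their reads cannot be told apart. Ddc, Slc18a2 and Qdpr each overlap an antisense transcript as well, with 0 or 1 counts over all libraries. The 11 markers of striatal projection neurons summed to 120, 92.5 and 109 CPM in KO 2, 4 and 6, against 120, 119 and 124 CPM in WT 1, 3 and 5, so that KO 4 was low in both but WT 5 was the highest in these markers. The dopamine receptor Drd1, which defines a class of these neurons, had 10, 8 and 5 counts in KO, against 16, 7 and 11 counts in WT.

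**Figure D3:**
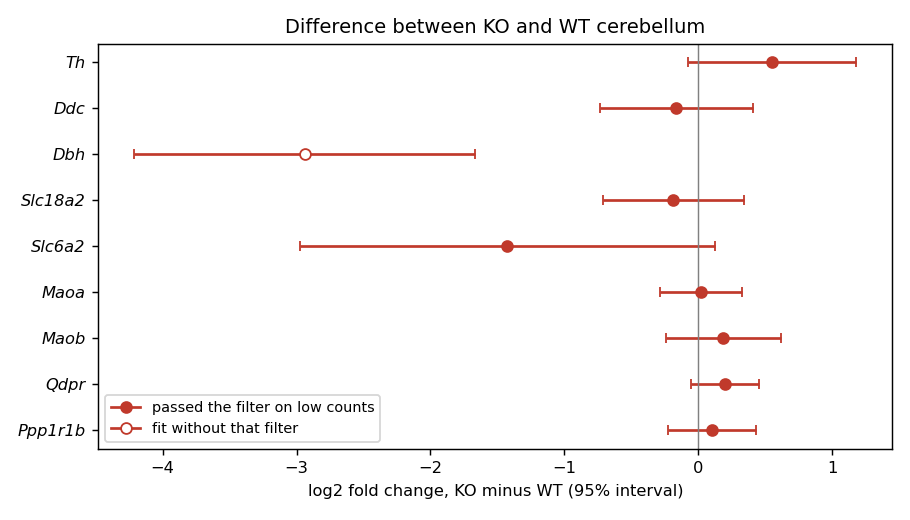
Log2 fold change, KO minus WT (horizontal axis), with its 95% interval from the edgeR fit for each of the 9 genes; filled points passed the filter on low counts, and the open point, Dbh, comes from the fit without that filter. The intervals of the 8 filtered genes include 0. That of Dbh runs from -4.21 to -1.67, with its spread taken from the trend over genes, so its width does not compare with theirs.

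Across the rest of the monoamine pathway, 7 lists held 120 other genes, of which 99 passed the filter and 0 were called in either direction. In the fit of every gene with at least 1 count 1 of the listed genes was called, Tph1, a tryptophan hydroxylase, at 4.44 on the log2 scale (edgeR adjusted p = 0.000169), with 11, 1 and 39 counts in KO 2, 4 and 6, against 1, 1 and 0 counts in WT 1, 3 and 5. The 99 tested genes had a median log2 fold change of -0.01, 45.5% were positive, and 8.08% separated the groups without overlap, beside 7.26% of all tested genes. At an unadjusted p under 0.05 there were 3 of the 99, beside 2.75% of all tested genes.

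Of the synthesis and cofactor genes 12 of 15 were tested, with 9 positive and a median log2 fold change of 0.05. Gchfr, the feedback regulator of GTP cyclohydrolase, had 5.96, 5.64 and 6.95 CPM in KO 2, 4 and 6, against 5.36, 5.16 and 2.85 CPM in WT 1, 3 and 5 (a log2 difference of 0.47, SE 0.26, edgeR adjusted p = 1.0). Cyb561, the cytochrome that passes electrons into vesicles for Dbh, had 28.5, 25.9 and 21.8 CPM in KO, against 20.3, 20.1 and 14.6 CPM in WT. Its log2 fold change was 0.47 (SE 0.17), with an unadjusted p of 0.0174 and an edgeR adjusted p of 1.0. The groups of both genes did not overlap, with KO higher, and WT 5 was the lowest, as it was for Th. Gch1, the first enzyme of tetrahydrobiopterin synthesis, was at 0.07, Pts at 0.02 and Spr at 0.03 on the log2 scale. Moxd1, a relative of Dbh, was the highest of the list at 0.70 (unadjusted p = 0.046), and Pcbd1 the lowest at -0.25.

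Of the transporters 4 of 9 were tested, with Slc29a4, a low-affinity monoamine transporter, at -0.05, Slc18b1 at 0.05 and Slc47a1 at 0.58. The serotonin transporter Slc6a4 did not reach the filter, with 4, 0 and 1 counts in KO 2, 4 and 6, against 3, 0 and 4 counts in WT 1, 3 and 5. Of the breakdown genes 13 of 14 were tested, with 6 positive and a median of 0.00. Sult4a1 was at -0.09, Akr1a1 at 0.00 and the aldehyde dehydrogenase Aldh2 at 0.05. The ends of that list were Aanat at -0.70 and Sult1a1 at 0.23.

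Among receptors for dopamine and noradrenaline 9 of 15 were tested, with 6 positive and a median of 0.26. Adra1a, an alpha-1 adrenergic receptor named after its value was seen, had 13.6, 11.3 and 13.6 CPM in KO 2, 4 and 6, against 8.26, 8.34 and 10.5 CPM in WT 1, 3 and 5. All KO libraries were above all WT libraries, with a log2 fold change of 0.50 (SE 0.17, unadjusted p = 0.014, edgeR adjusted p = 1.0). The most abundant by length were Adra2a at -0.13 and Adra1d at 0.03. Drd4 was the highest at 0.70 and Drd2 the lowest at -0.56, with 76, 9 and 50 counts in KO, against 60, 71 and 61 counts in WT, so that KO 4 alone was low. Of 17 serotonin and histamine receptors 11 were tested, with 5 positive and a median of -0.01. Hrh3 was at 0.02, Htr1b at 0.05, Htr4 at -0.54 and Htr2c, which the choroid plexus also expresses, at 0.20.

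All 30 genes of DARPP-32 signalling were tested, and 10 were positive with a median of -0.03. Their log2 fold changes lay between -0.18 (Rgs9) and 0.07 (Pde10a), with the calcineurin subunit Ppp3r1 at -0.05 and the phosphatase subunit Ppp1cc at 0.01. All 20 regulators and activators of Th were tested too, and 6 were positive with a median of -0.03. Creb1 was at -0.13, Crem at 0.03 and Atf1 at 0.02, all factors that bind the response element shown in the Th promoter. The 14-3-3 proteins Ywhah and Ywhae, of a family that activates Th protein, were at 0.08 and -0.07. Fos was the lowest at -0.30, and Camk2a the highest at 0.28, with 2282, 3233 and 2245 counts in KO, against 1947, 2351 and 1975 counts in WT, highest in KO 4.

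**Figure D4:**
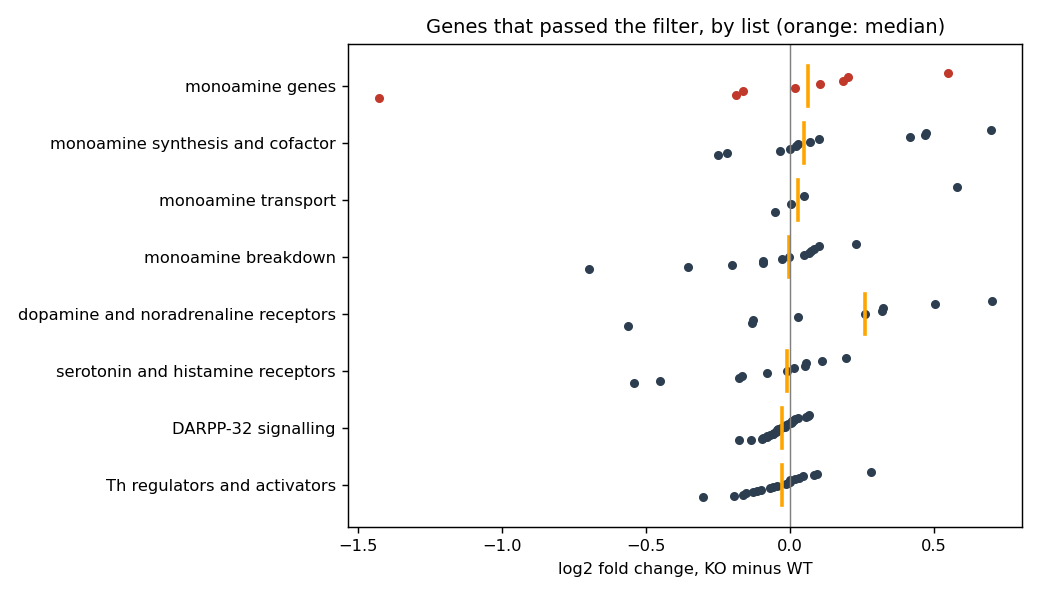
Log2 fold change, KO minus WT (horizontal axis), of each gene that passed the filter, for the 8 tested monoamine genes (red, top row) and the 7 other lists (dark), with an orange line at the median of each list. Medians lie between -0.03 and 0.26, and the lowest point, Slc6a2 at -1.43, lies in the top row.

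Genes whose levels followed those of Th were sought among 13682 other protein-coding genes of at least 1 CPM, as a description over 6 libraries. The nearest were Mutyh, a DNA repair glycosylase, with a Pearson correlation of 0.998, Swsap1 with 0.994, Plcd1 with 0.990, Msl3l2 with 0.984 and Med29 with 0.978. In Mutyh, too, WT 5 was the lowest library with 4.83 CPM and KO 2 the highest with 8.54 CPM. With 6 libraries such values are common, and 146 genes exceeded 0.9 for Th, against 650 for Ppp1r1b, whose low libraries were KO 4 and WT 5. The nearest genes were Wrap53 for Ddc, Amd1 for Slc18a2, Ccng1 for Maoa, Mblac2 for Maob, Icam2 for Qdpr and Eftud2 for Ppp1r1b, with correlations of 0.985 to 0.997.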

How the data were processed

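Per the labels' protocols, RNA of whole cerebellum was taken up in TRIZOL and a company prepared the libraries. The submitters' processing notes name HISAT2, DESeq2 and GRCm38.p6. The counting program and its strand setting were not given in the sources used here. Deposited count columns hold whole counts per gene. The FPKM columns are the authors' counts scaled to gene length and depth. The deposited group means are a signal on the authors' own scale and support no result. A deposited comparison by the authors holds log2 fold changes, KO over WT, and p-values.

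Titles gave the groups and numbers. The main test was that of edgeR 4.0.16 in R 4.3.3 on the counts (quasi-likelihood F test, TMM factors 0.990 to 1.01, filterByExpr by group with its minimum count of 10, Benjamini-Hochberg adjustment over 17142 genes, calls under 0.05). CPM values use TMM library sizes, and SE is the size of the log2 fold change divided by the square root of F. Correlations used log2 CPM with a prior count of 2. Alternatives used DESeq2 1.42.0 and limma 3.58.1. Single values were compared by exact permutation over libraries with scipy 1.17.1. The main edgeR fit, limma-voom and DESeq2 were run on simulated counts of genes that passed the filter. The edgeR fit of every gene with at least 1 count was not tested in this way. P-values measure the spread between these animals, in part pooled over genes. In the edgeR fit of every gene with at least 1 count, that spread came wholly from the trend over genes.

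The members, lists and tests were chosen with earlier results of these data known. Named were all members and, per list, the called genes or else the 2 highest by FPKM and both extremes of fold change, plus the genes most like each member of at least 1 CPM; others are values of markers or were named after being seen. Promoters came from RefSeq (GRCm38.p6), where 6 of the 9 genes had an entry. Some genes of the lists are not reported here by name.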

Additional observations from a re-analysis of the deposited data

How the results depend on the processing

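No monoamine gene was called higher in KO under any of the 17 alternatives, and 1, Dbh, was called lower in the fit of every gene with at least 1 count. Of 15 alternatives to that fit 9 kept the call of Dbh, including robust shrinkage, which gave values identical to that fit. The number of genes called over all was 8, and it was 142 in that fit, 38 by DESeq2 without a filter, 40 with WT 5 and KO 4 both left out and 0 with the choroid plexus term. With single libraries left out it ranged from 0 to 28. Th stayed positive in all 17 (0.10 to 0.72), and its ratio to Purkinje markers stayed positive in 9 alternatives (0.21 to 0.77). Slc6a2 stayed negative in the 15 alternatives that tested it (-2.21 to -1.01), as did Dbh in its 15 (-3.35 to -2.12). Near-zero values changed sign without passing. Maoa was at -0.0348 with WT 5 and KO 4 left out and at -0.19 with the choroid plexus term, where Maob was at -0.14. With single libraries left out Maoa ranged from -0.0841 to 0.14, Maob from -0.0406 to 0.33, Ddc from -0.27 to 0.0223 and Ppp1r1b from -0.0229 to 0.22. The sign changed without KO 2, KO 4 or WT 3 for Maoa, KO 4 for Maob, KO 4 or WT 1 for Ddc and WT 5 for Ppp1r1b. The causes were not tested. No paired analysis was possible because the groups share no animal number. With 3 animals a group and 2 to 35 counts per library, Dbh and Slc6a2 are limited by depth and by the spread between WT animals.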

Other observations

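Some genes known from other small tissues were high in few libraries, seen while the pathway lists were read. Their origin was not tested. Tph1, the peripheral and pineal tryptophan hydroxylase, was highest in KO 6, as given above. Asmt, the last enzyme of melatonin synthesis, had 8 counts in KO 6 and 0 in every other library. The pineal enzyme Aanat did not follow them, with 11, 8 and 14 counts in KO 2, 4 and 6, against 14, 24 and 15 counts in WT 1, 3 and 5. Tph2, the tryptophan hydroxylase of serotonin neurons, had 12, 5 and 10 counts in KO, against 5, 6 and 15 counts in WT.

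In KO 4 the cortical genes Tbr1 and Emx1 had 79 and 17 counts, beside 3 to 15 and 0 to 3 counts in the other libraries. Drd2 and Tac1 were lowest there, with 9 and 24 counts in KO 4 and 50 to 76 and 52 to 118 counts in the other 5 libraries. The cause was not tested.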
